A study of Homo sapiens with 24 samples.

Results

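The difference between platinum-resistant and platinum-sensitive ovarian cancer cells in their early response to 5-FdU-ECyd was measured as the interaction of cell line and treatment at 6 h. It used 12 of the 24 libraries of the series, all those of 6 h, in 4 groups of 3: A2780 control, A2780 treated, A2780cis control and A2780cis treated. Both lines are human and isogenic. A2780 is platinum-sensitive, and A2780cis is platinum-resistant and received 1 µM cisplatin for a passage in each 2 to 3. Treated flasks got medium with 1 µM 5-FdU-ECyd for 6 h and control flasks standard medium. For each gene, the log2 fold change (log2 FC) of treated against control cells in A2780 was subtracted from that in A2780cis, so that a negative interaction marks a gene whose response was lower in A2780cis. Of 20240 genes tested, 622 had an interaction past the threshold, an adjusted p-value of at most 0.05 (3.07%), and these genes are described here.

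5-FdU-ECyd joins 2'-deoxy-5-fluorouridine, which blocks thymidylate synthase and thereby DNA synthesis, to 3'-C-ethynylcytidine, an inhibitor of RNA synthesis. Stalled replication and DNA damage stabilise the transcription factor p53, which switches on genes of cell cycle arrest, DNA repair and apoptosis. Short-lived transcripts such as those of immediate early genes and of cyclins follow a change in transcription or decay within hours, so that an early sample holds responses that have not yet spread to stable transcripts.

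Sensitivity and resistance are each represented by 1 line, and the 3 libraries of a group are called biological triplicates by the study, so that p-values measure the spread between triplicates of 1 line. The libraries of 6 h held 11077368 to 21901406 counts, and no 2 replicates agreed within sampling noise. Of the epithelial markers, PAX8 and KRT7 were at 0 in every library of 6 h, and WT1, KRT19, CDH1 and MUC16 had at most 1 count. KRT18 lay between 0.696 and 2.52 CPM (counts relative to library size) in A2780 and between 18.5 and 27.5 CPM in A2780cis. KRT8 differed the same way, at 0.557 to 1.44 against 3.64 to 6.16 CPM. EPCAM went the other way, at 0.427 to 0.974 CPM in A2780 and 0.0691 to 0.425 CPM in A2780cis, and MSLN was at most 0.612 CPM. The defining markers of ovarian epithelium were thus absent or low. The summed level of the fibroblast markers was 236 to 276 CPM in A2780 control, 280 to 350 CPM in A2780 treated, 1630 to 1950 CPM in A2780cis control and 1460 to 1720 CPM in A2780cis treated libraries, almost all of it COL3A1 (188 to 272 CPM in A2780 and 1450 to 1950 CPM in A2780cis). The other fibroblast markers above a trace lay the other way, with COL1A2 at 27.1 to 53.8 CPM in A2780 and at most 0.371 CPM in A2780cis, DCN at 7.69 to 11.9 against 0.414 to 1.28 CPM, and COL1A1, LUM and PDGFRB also lower in every A2780cis library than in any A2780 library. The leukocyte sum was at most 7.31 CPM and the endothelial sum at most 0.776 CPM. Of the 12 marker genes tested, 0 had an interaction past the threshold in edgeR's quasi-likelihood test, against 3.07% of all genes. An unadjusted p-value under 0.05 was found for 4, against 3229 of all 20240 genes. The DESeq2 Wald test called 1, against 5.39% of the genes it tested. The part of these markers in the differences below was not tested. CPM values are shares of a library, and in these bulk samples fewer cells and less RNA per cell cannot be told apart. They are not corrected for length and are compared here between libraries for 1 gene at a time.

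Most of the genes responded less, or fell more, in A2780cis. The response was lower in A2780cis for 482 genes (2.38% of those tested) and higher for 140 (0.692%). The absolute interaction was at least 1 on the log2 scale for 240 of them, 168 lower and 72 higher. When each library of 6 h was left out in turn, 276 genes kept their call in all 12 fits, 231 lower and 45 higher. The total fell to 357 genes without A2780 control replicate 1, 372 without A2780cis treated replicate 2, 391 without A2780cis control replicate 2 and 408 without A2780 treated replicate 2. The share of lower calls depended on the processing: it was 77.5% here, 66.6% with the 12 libraries of 6 h fitted alone, 65.4% without a filter on low counts, 66% without lncRNA and rRNA genes and 60.9% after a correction of each library for GC content.

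Within the lines, 5950 genes changed in A2780 (29.4%) and 6212 in A2780cis (30.7%) at 6 h. Of the 482 genes with a lower response, 185 fell in A2780cis and were not called in A2780, and 153 rose in A2780 and were not called in A2780cis. A further 56 fell in both lines, 48 rose in A2780 and fell in A2780cis, 39 rose in both, and 1 was called in neither. Of the 140 genes with a higher response, 64 rose in A2780cis and were not called in A2780, 38 fell in A2780 and were not called in A2780cis, 20 fell in A2780 and rose in A2780cis, 10 rose in both and 8 fell in both. Opposite changes, each past the threshold in its line, were therefore seen in 68 genes. The classes describe the calls within each line, which use the same libraries as the interaction.

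**Figure D1:**
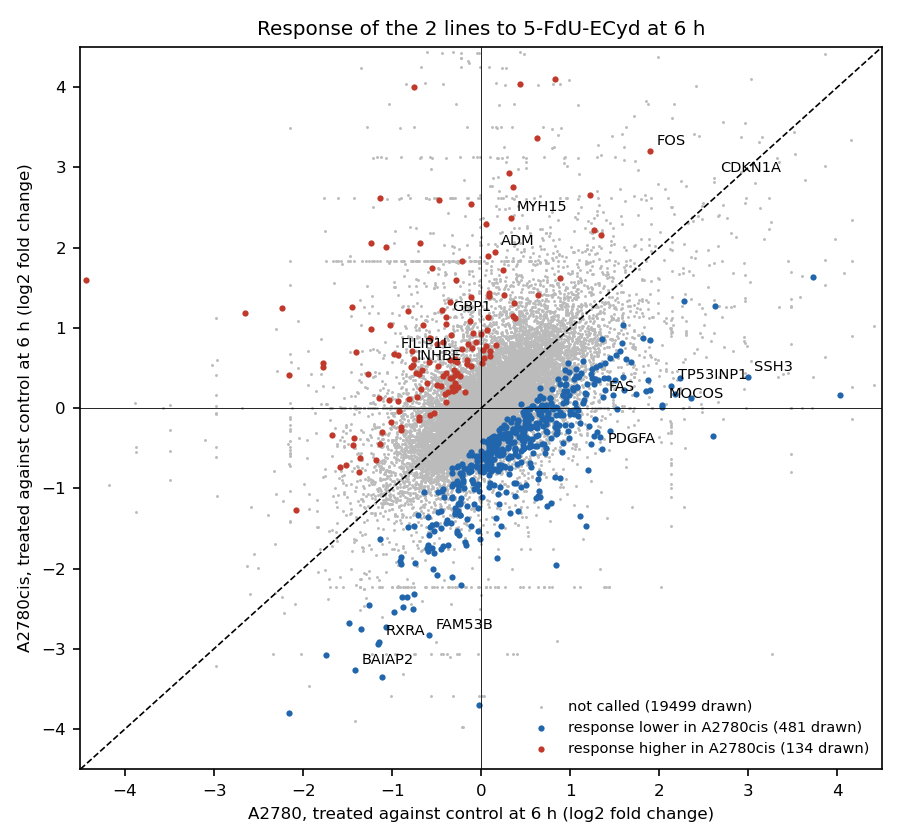
Log2 fold change of treated against control cells at 6 h in A2780 (horizontal axis) and A2780cis (vertical axis) for 20114 of the 20240 genes tested; 126 genes, 7 of them called, lie outside the axes. Genes with a lower response in A2780cis (blue) lie below the dashed line of equal response and those with a higher response (red) above it, while CDKN1A, which rose in both lines, lies near the line.

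**Figure D2:**
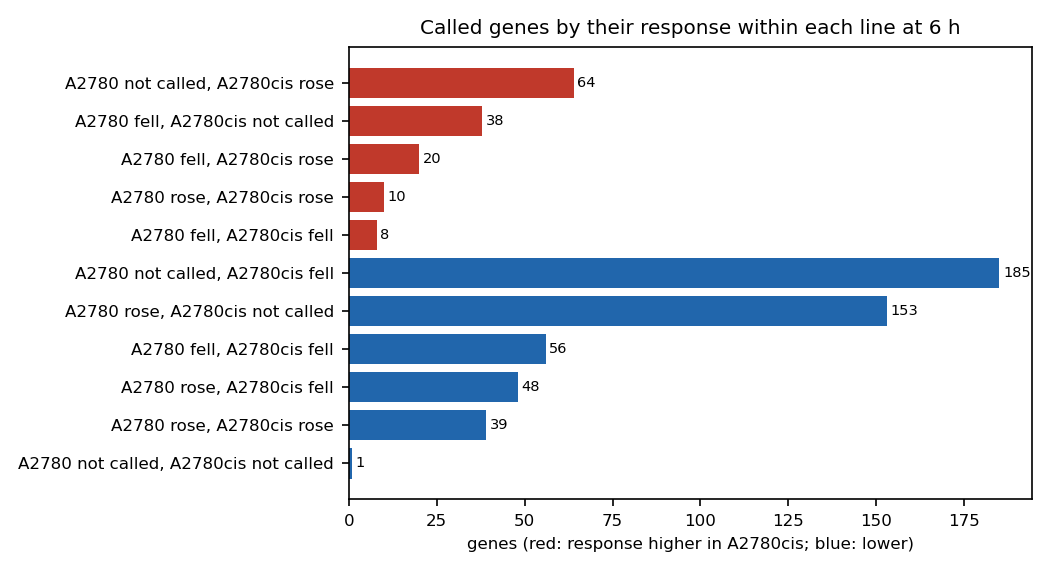
Number of the 622 genes in each class of response within the lines at 6 h; bars show genes with a higher (red) or lower (blue) response in A2780cis. The longest bar, 185 genes, holds genes that fell in A2780cis and were not called in A2780.

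Targets of p53 rose in both lines, and part of them rose less in A2780cis. Of 39 members of the list tested, 36 rose in A2780 and 32 in A2780cis at 6 h, against 16% and 14.4% of all genes. An interaction past the threshold was found for 11, 9 lower and 2 higher, against 2.38% and 0.692% of all genes. The median interaction of the list was -0.11, against -0.034 over all genes.

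TP53INP1, a p53-induced protein that takes part in autophagy and cell death, stood at 11.6, 12.3 and 11.6 CPM in the 3 control libraries of A2780 and at 49.8, 48.7 and 57.6 CPM after treatment. Its A2780cis levels were 0.832, 1 and 0.9 CPM in the controls and 1.28, 1.24 and 0.895 CPM after treatment. The gene rose in every treated A2780 library, whereas the A2780cis groups overlapped at about 1 CPM, and the interaction was -1.86 ± 0.34 (SE, adjusted p = 0.00209). Its exons share sequence with the opposite-strand gene NDUFAF6, and without a stated strand setting the reads of the pair cannot be told apart.

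FAS, a death receptor of the cell surface (chr10:88953813-89029605 on GRCh38, as all spans of genes given here, from GENCODE 44), rose in A2780 from 15.4, 16.4 and 14.4 to 34.6, 39.1 and 44.9 CPM. The A2780cis controls, at 50.8, 50.5 and 53.2 CPM, already lay above every treated A2780 library, and the treated A2780cis libraries were at 59.3, 57.8 and 53.5 CPM. The interaction was -1.22 ± 0.19 (SE, adjusted p = 0.000449). PPM1D, the phosphatase that switches p53 signalling off again (chr17:60600193-60666280), moved from 37.6, 42.4 and 34.2 CPM to 78.5, 83 and 81.3 CPM in A2780. In A2780cis it was at 52.7, 65 and 60.1 CPM in the controls and 61.4, 55.6 and 57.5 CPM after treatment, 2 overlapping groups, and the interaction was -1.11 ± 0.15 (SE, adjusted p = 8.19e-05).

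The other members with a lower response were smaller in their difference. DRAM1, a lysosomal protein of autophagy, had an interaction of -0.82 ± 0.15 (SE, adjusted p = 0.00276), and APAF1, the core of the apoptosome, one of -0.82 ± 0.18 (SE, adjusted p = 0.0114). AEN, an exonuclease of apoptosis, had an interaction of -0.58 ± 0.12 (SE, adjusted p = 0.00631) although it rose in both lines, by 1.07 in A2780 and 0.49 in A2780cis on the log2 scale. FBXW7, a ubiquitin ligase subunit that targets cyclin E, reached -0.55 and PLK2, a polo-like kinase, -0.54, both also up in the 2 lines. TP53I3, a quinone oxidoreductase, had an interaction of -0.56 ± 0.15 (SE, adjusted p = 0.0415), and its call was lost with the GC correction (adjusted p = 0.143) and in 9 of the 12 fits that left out a library.

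SESN2 and GADD45A rose more in A2780cis. SESN2, a sestrin that restrains mTORC1 under stress, rose from 39.7, 51.3 and 50.1 to 94.4, 85 and 80.1 CPM in A2780 and from 14.1, 12.6 and 13.2 to 37.1, 43 and 43.2 CPM in A2780cis. The A2780cis libraries started lower and the interaction was 0.74 ± 0.16 (SE, adjusted p = 0.0072). GADD45A, a DNA damage-inducible growth arrest protein, went from 9.33, 11.5 and 11.1 to 24.1, 28.2 and 24.3 CPM in A2780. In A2780cis it went from 3.33, 4.81 and 5.89 to 21.9, 21.2 and 22.7 CPM, just below the treated A2780 libraries, with an interaction of 0.96 ± 0.21 (SE, adjusted p = 0.00931).

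Several arrest and death genes of the list rose in both lines with no difference past the threshold. CDKN1A, the cyclin-dependent kinase inhibitor p21, was at 39.8, 59.3 and 55 CPM in A2780 control and 333, 317 and 292 CPM in A2780 treated libraries. It was at 11.6, 12.2 and 11.2 CPM in A2780cis control and 78.5, 85.9 and 90 CPM in A2780cis treated libraries, so that no treated library of a line overlapped its controls. Its log2 FC was 2.62 and 2.86, and the interaction was 0.25 ± 0.15 (SE, adjusted p = 0.474). For BBC3, which encodes the BH3-only protein PUMA, the interaction was 0.07 ± 0.44 (SE, adjusted p = 0.984), for BAX, a pore former of mitochondria, 0.11 ± 0.20 (SE, adjusted p = 0.884), for the DNA repair gene DDB2 -0.06 ± 0.16 (SE, adjusted p = 0.927) and for the sestrin SESN1 0.24 ± 0.15 (SE, adjusted p = 0.489). SFN, the 14-3-3 sigma protein of G2 arrest, had a fitted interaction of -2.38 ± 0.81 (SE, adjusted p = 0.116) at levels of at most 2.64 CPM, with its A2780 controls at or under 3 counts, so that the fitted size depends on the prior count. A list of 26 genes that the study discusses, 24 of them tested, was chosen on these samples and is no independent choice. Of the 24, FAS, APAF1, CCNE1 and CCNE2 had a lower and FOS, SESN2 and GADD45A a higher response (29.2% called, against 3.07% of all genes).

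Genes of the G1/S transition had mostly lower responses among their calls. Of 31 cyclins, cyclin-dependent kinases and E2F factors tested, 8 had a lower response in A2780cis (25.8%, against 2.38% of all genes) and 0 a higher one (0.692% of all genes). The median interaction was -0.26, and leaving out 1 library gave between 7 and 9 calls. The DESeq2 Wald test called 10, all lower, and after the GC correction 9 were lower and 1 higher. In A2780 10 members rose and 6 fell, where 16% and 13.4% of all genes did. In A2780cis 5 rose and 10 fell, against 14.4% and 16.3%.

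CCNE1, cyclin E1, which drives entry into S phase (chr19:29811991-29824312), was at 70.6, 78.4 and 75.3 CPM in A2780 controls and rose to 131, 133 and 125 CPM. The A2780cis libraries were at 54.9, 63.9 and 60.4 CPM without and 57.3, 62.4 and 62.5 CPM with treatment, and the groups overlapped. The interaction was -0.77 ± 0.12 (SE, adjusted p = 0.000561). CCNE2, cyclin E2, rose in both lines, from 44.8, 49.4 and 45.5 to 99.6, 110.5 and 118 CPM in A2780 and from 99.3, 97 and 112 to 143, 142 and 131 CPM in A2780cis, with an interaction of -0.80 ± 0.15 (SE, adjusted p = 0.00314).

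CDC25A, the phosphatase that activates the kinases bound to cyclin E (chr3:48157146-48188417), moved in opposite directions. It rose from 128, 134 and 124 to 159, 169 and 162 CPM in A2780. It fell from 100.4, 111 and 107 to 88, 86.3 and 83.7 CPM in A2780cis, and the interaction was -0.64 ± 0.10 (SE, adjusted p = 0.000728). Of the E2F family, E2F7, a repressor, rose in both lines with an interaction of -0.82 ± 0.15 (SE, adjusted p = 0.00178), and E2F2, an activator, had one of -0.78 ± 0.14 (SE, adjusted p = 0.00237). TFDP1, the partner of the E2F factors, fell in A2780cis from 101, 124 and 108 to 76.9, 80.8 and 85.8 CPM, with an interaction of -0.55 ± 0.12 (SE, adjusted p = 0.00904). The D-type cyclins CCND3 and CCND1 had interactions of -1.07 ± 0.18 (SE, adjusted p = 0.00107) and -0.77 ± 0.18 (SE, adjusted p = 0.0161). The CCND1 controls of A2780cis were far apart, at 195, 269 and 169 CPM, and its call was lost in 3 of the 12 fits that left out a library.

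The E2F binding core TTTNGCGC was searched on both strands in the 250 bases before each gene start of the RefSeq promoter table (GRCh38.p14). It was found in 1.51% of all 35116 windows and in 2.84% of the tested genes with a window. Of the 8 G1/S genes, 6 had a window and CDC25A, E2F2 and TFDP1 held the core. Over the 360 genes called lower with a window the share was 4.44%, and over the 84 called higher 1.19%. The uncalled members of the list were not counted, so that whether the core goes with the list or with the lower response was not tested. The windows of CDC25A (chr3:48188418-48188667, minus strand) and E2F2 (chr1:23531234-23531483, minus strand) are shown because both are among the 8 genes and carry the core close to their start. Each runs 5′ to 3′ and ends at the base before the start, with the matches in capitals.
CDC25A: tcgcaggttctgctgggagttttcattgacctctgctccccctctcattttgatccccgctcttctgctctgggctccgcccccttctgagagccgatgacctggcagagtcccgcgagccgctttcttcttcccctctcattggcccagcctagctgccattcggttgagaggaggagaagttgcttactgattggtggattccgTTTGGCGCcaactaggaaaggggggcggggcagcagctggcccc
E2F2: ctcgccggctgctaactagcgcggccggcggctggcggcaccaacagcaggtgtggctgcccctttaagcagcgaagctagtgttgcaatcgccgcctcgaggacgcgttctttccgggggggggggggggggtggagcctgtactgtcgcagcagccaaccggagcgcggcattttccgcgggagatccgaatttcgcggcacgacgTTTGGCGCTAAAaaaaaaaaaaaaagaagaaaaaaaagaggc
The core of CDC25A lies 44 to 37 bases before the start. E2F2 holds 2 overlapping matches, 1 on each strand, from 42 to 31 bases before its start. A match is a string of letters and not a measured binding site.

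The share of DNA replication genes called was near that of all genes. Of 47 tested, 1 had an interaction past the threshold (2.13%, against 3.07% of all genes), GINS4, a subunit of the replicative helicase, at -0.42 ± 0.11 (SE, adjusted p = 0.0296), a call kept in 4 of the 12 fits that left out a library. The interaction was negative for 40 of the 47, against 10945 of all 20240 genes, and the median was -0.24. An unadjusted p-value under 0.05 was found for 13, against 3229 of all 20240 genes. The DESeq2 Wald test called 4 and the fit with the GC correction 6, all lower. In A2780 17 members rose and 7 fell, where 16% and 13.4% of all genes did. In A2780cis 7 rose and 14 fell, against 14.4% and 16.3%. Of the nucleotide metabolism genes, 2 of 35 had a lower response (5.71%, against 2.38% of all genes) and 0 a higher one (0.692% of all genes). RRM2, the small subunit of ribonucleotide reductase, which makes deoxynucleotides, rose in A2780 from 325, 351 and 307 to 439, 474 and 474 CPM. In A2780cis it was at 295, 388 and 324 CPM in the controls and 309.7, 275 and 276 CPM after treatment, with an interaction of -0.72 ± 0.15 (SE, adjusted p = 0.00502). UCK1, a uridine-cytidine kinase that phosphorylates cytidine analogues, rose in both lines, from 18.7, 20.2 and 21.9 to 41.3, 39.8 and 35.2 CPM and from 14.2, 12.9 and 13.9 to 15.2, 18.7 and 19.4 CPM. Its interaction was -0.56 ± 0.15 (SE, adjusted p = 0.0358), and it kept its call in 4 of the 12 fits that left out a library.

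The largest lower responses among genes that kept their call without any single library of 6 h and had a mean log2 CPM of at least 2 came mostly from genes outside these lists. Apart from TP53INP1 and a lncRNA of chromosome 21 described below, the 12 largest by this rule were the protein-coding genes that follow. SSH3, MOCOS and PDGFA rose in A2780 from below 1 CPM, RXRA, VAV2, FAM53B, BAIAP2 and B3GALT6 fell in both lines and further in A2780cis, SLC12A7 fell in A2780cis, and PLCL2 moved in opposite directions.

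SSH3, a phosphatase that activates the actin-severing protein cofilin (chr11:67303478-67312607), was the largest. Its A2780 controls were at 0.287, 0.379 and 0.546 CPM and the treated libraries at 3.07, 3.52 and 3.04 CPM. In A2780cis it was at 11.7, 10.6 and 11 CPM in controls and 12.9, 13.4 and 16.9 CPM in treated libraries, above every A2780 library. The interaction was -2.61 ± 0.37 (SE, adjusted p = 0.00016). On the plain CPM scale the SSH3 mean climbed no less in A2780cis (controls 11.1, treated 14.4) than in A2780 (controls 0.404, treated 3.21). The log2 size therefore leans on the low A2780 controls. MOCOS and PDGFA also had A2780 controls below 1 CPM, but their A2780cis means rose less or fell. MOCOS, which activates molybdenum enzymes, followed the same course, from 0.431, 0.379 and 0.909 to 2.73, 2.04 and 2.22 CPM in A2780, with 38.6, 41 and 38.1 CPM without and 39.9, 42.1 and 39.2 CPM with treatment in A2780cis and an interaction of -1.99 ± 0.28 (SE, adjusted p = 0.00016). PDGFA, the A chain of platelet-derived growth factor, rose from 0.79, 0.568 and 0.909 to 2.05, 2.41 and 1.48 CPM in A2780 and fell from 15, 16.6 and 16.6 to 10.3, 10.9 and 12.4 CPM in A2780cis, with an interaction of -1.86 ± 0.33 (SE, adjusted p = 0.00148).

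RXRA, the retinoid X receptor that pairs with many nuclear receptors (chr9:134317098-134440585), fell in both lines. It went from 13.8, 17.4 and 20.4 to 8.7, 8.42 and 6.22 CPM in A2780. From nearly the same control level in A2780cis, 15.9, 17.8 and 16.8 CPM, it went to 2.23, 2.04 and 2.36 CPM, below every other library, and the interaction was -1.77 ± 0.28 (SE, adjusted p = 0.000698). VAV2 fell from 13.1, 13.2 and 16.4 to 8.78, 9.26 and 7.18 CPM and from 19.3, 22.6 and 17.8 to 3.35, 3.43 and 3.63 CPM, with an interaction of -1.75 ± 0.26 (SE, adjusted p = 0.000396). FAM53B, linked to the nuclear entry of beta-catenin, had a mean of 19.5 CPM in A2780 control and 13 CPM in A2780 treated libraries. Its means in A2780cis were 29.1 and 4.12 CPM, and the interaction was -2.24 ± 0.24 (SE, adjusted p = 4.96e-06). BAIAP2, an adaptor of membrane protrusions, had an interaction of -1.85 ± 0.36 (SE, adjusted p = 0.00348) and B3GALT6, a galactosyltransferase of the proteoglycan linker, one of -1.78 ± 0.29 (SE, adjusted p = 0.000755), and both fell in the 2 lines.

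SLC12A7, a potassium-chloride cotransporter, was at 11.9, 14.7 and 18.9 CPM in A2780 controls and 15.7, 12.3 and 10.8 CPM after treatment, overlapping groups. It fell from 26.1, 22.6 and 19.4 to 3.43, 5.55 and 5.51 CPM in A2780cis, with an interaction of -1.98 ± 0.33 (SE, adjusted p = 0.001). PLCL2, a phospholipase C-like protein without catalytic activity, moved in opposite directions, from 8.11, 8.8 and 5.91 to 13.2, 14.1 and 14.7 CPM in A2780 and from 17.2, 23 and 20.4 to 12.3, 11.2 and 9.94 CPM in A2780cis, with an interaction of -1.75 ± 0.20 (SE, adjusted p = 1.58e-05). The smallest p-values of all 622 genes belonged to ABHD15, a protein of the alpha/beta hydrolase family, and LPCAT1, an acyltransferase of lung surfactant and membrane lipids, both named after their values were seen. ABHD15 rose from 16.5, 17.7 and 19 to 22.9, 25.3 and 22.6 CPM in A2780 and fell from 85.6, 102 and 100.3 to 41.1, 36.8 and 40.4 CPM in A2780cis, with an interaction of -1.70 ± 0.13 (SE, adjusted p = 2.09e-08). For LPCAT1, which fell in both lines, the interaction was -1.47 ± 0.14 (SE, adjusted p = 1.95e-06). EGFR, the epidermal growth factor receptor, was also chosen after its values were seen. It was at 8.04, 8.14 and 8.18 CPM in A2780 controls and 10.9, 10.1 and 10.7 CPM in treated libraries, a difference that missed the threshold, and fell from 22.9, 28.5 and 20 to 11.3, 10.3 and 11.7 CPM in A2780cis, so that the treated libraries of both lines ended at similar levels, with an interaction of -1.48 ± 0.20 (SE, adjusted p = 0.000102).

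**Figure D3:**
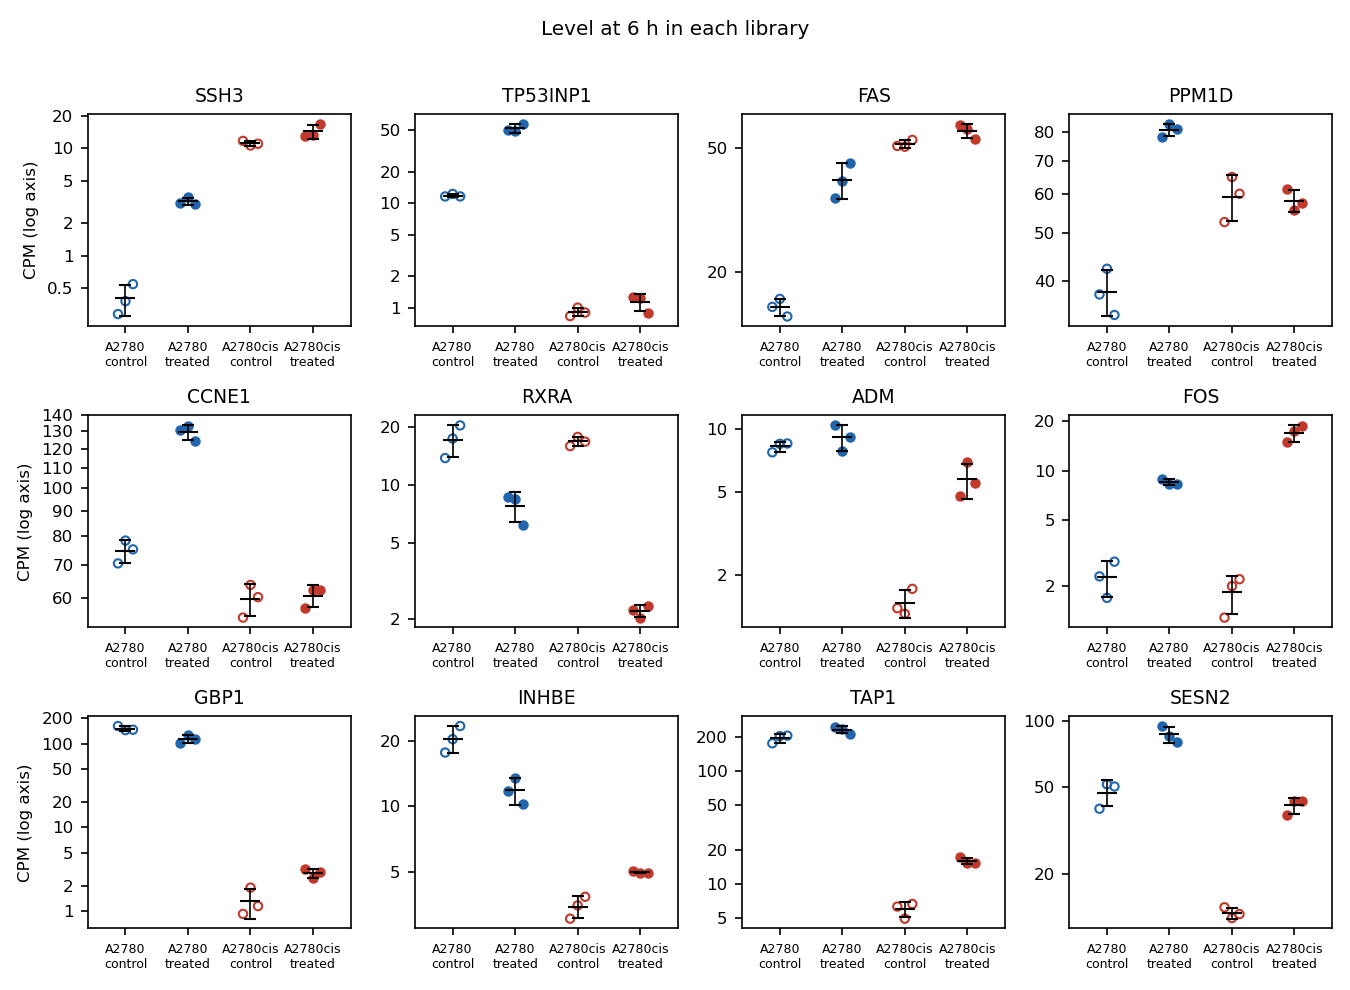
Level at 6 h in CPM (log axis) of 12 genes in each of the 12 libraries, A2780 in blue and A2780cis in red, open circles for control and filled circles for treated libraries, with black bars for mean ± SD of 3 libraries. The first 6 genes had a lower and the last 6 a higher response in A2780cis. GBP1 and TAP1 lie in A2780cis far below their A2780 level at either condition, and INHBE lies below its own by less.

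Calls among interferon-response genes had the other direction. Of 38 tested, 7 had a higher response in A2780cis (18.4%, against 0.692% of all genes) and 0 a lower one (2.38% of all genes), and the median interaction was 0.29. In A2780 2 rose and 13 fell after treatment, where 16% and 13.4% of all genes did. In A2780cis 12 rose and 5 fell, against 14.4% and 16.3%. The count depended on single libraries: 3 members were called without A2780cis control replicate 2, 4 without A2780 control replicate 1 or 2, A2780 treated replicate 1 or 2, A2780cis control replicate 1 or A2780cis treated replicate 1 or 2, and 5 or 6 without each of the others. After the GC correction 11 were called, all higher, against 484 of 19908 genes higher in that fit.

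GBP1, a guanylate-binding GTPase induced by interferon (chr1:89051882-89065360), fell in A2780 from 162, 145 and 147 to 102, 127 and 114 CPM. In A2780cis it was at 0.924, 1.91 and 1.15 CPM in the controls and 3.19, 2.48 and 2.92 CPM after treatment, with no overlap, and the interaction was 1.53 ± 0.25 (SE, adjusted p = 0.000948). STAT2, the interferon signal transducer, was at 48.4, 40.3 and 48.6 CPM and 50, 50.9 and 52.7 CPM in A2780. It rose from 13.8, 15.2 and 14.2 to 22.9, 27 and 24.9 CPM in A2780cis, and the interaction was 0.63 ± 0.14 (SE, adjusted p = 0.0085). PARP14, an ADP-ribosyltransferase, fell from 238, 239.7 and 232 to 175, 187 and 203 CPM in A2780 and rose from 71.1, 73.9 and 57.2 to 85.4, 81.1 and 76.5 CPM in A2780cis, with an interaction of 0.59 ± 0.13 (SE, adjusted p = 0.0121).

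The other 4 members were IFI27, RIGI, PARP9 and IRF1. IFI27, an interferon-alpha inducible protein, was at 21, 31.3 and 26.5 CPM and 36.8, 33.1 and 30.3 CPM in A2780. In A2780cis the control libraries held 1, 1 and 3 counts and the treated ones 21, 14 and 15, a ratio of 6.96 with a counting interval of 2.79 to 22.4 (95%, exact binomial), which leaves out replicate spread. The fitted interaction was 2.40 ± 0.56 (SE, adjusted p = 0.0133) and depends on the prior count. RIGI, a sensor of viral RNA, had an interaction of 0.73 ± 0.19 (SE, adjusted p = 0.0298), PARP9, the partner of DTX3L in interferon signalling, 0.47 ± 0.12 (SE, adjusted p = 0.0315), and IRF1, an interferon regulatory factor, 0.55 ± 0.15 (SE, adjusted p = 0.0467). IRF1 kept its call in 0 of the 12 fits that left out a library, PARP9 in 3 and RIGI in 4. The exons of PARP9 overlap those of DTX3L on the other strand.

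The gene with the smallest p-value among the 140 was TAP1, which pumps peptides into the endoplasmic reticulum for antigen presentation (chr6:32845209-32853816), named after its values were seen. It was at 174, 202 and 204 CPM in A2780 controls and 245, 236 and 212 CPM in treated A2780 libraries. It rose from 6.29, 4.91 and 6.62 to 17.1, 15.3 and 15.3 CPM in A2780cis, and the interaction was 1.16 ± 0.15 (SE, adjusted p = 8.55e-05). BTN3A3, a butyrophilin of the surface seen by gamma-delta T cells, fell from 15.4, 14.9 and 16.7 to 10.6, 11.4 and 11.4 CPM in A2780 and rose from 1.85, 2.51 and 2.62 to 4.15, 3.94 and 4.05 CPM in A2780cis, with an interaction of 1.29 ± 0.19 (SE, adjusted p = 0.000381). CD274, the checkpoint ligand PD-L1, and APOL6, an apolipoprotein L, both chosen after their values were seen, had interactions of 2.30 ± 0.51 (SE, adjusted p = 0.0101) and 0.86 ± 0.18 (SE, adjusted p = 0.00845). CD274 was at most 2.47 CPM in any library.

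Interferon-induced transcription factors bind the interferon-stimulated response element, whose core is GAAA and a second GAAA after any 2 bases, and the gamma-activated sequence, with the core TTCNNNGAA. In the 250 bases before the start, on both strands, the first core was found in 3.02% of all windows and 3.28% of the tested genes with a window, and the second in 6.57% and 7.51%. All 7 interferon-response genes with a higher response had a window. The first core was held by GBP1, IFI27, PARP14 and PARP9 and the second by IFI27, IRF1 and PARP14. The uncalled members of this list were not counted either. Whether the cores go with the list or with the higher response was therefore not tested. Over the 84 of the 140 genes that had a window, the shares were 8.33% and 13.1%, and over the 360 of the 482 with a window 3.89% and 8.61%. The windows of GBP1 (chr1:89065209-89065458, minus strand), PARP14 (chr3:122680589-122680838, plus strand), IFI27 (chr14:94110486-94110735, plus strand) and TAP1 (chr6:32853705-32853954, minus strand) are given 5′ to 3′ from RefSeq on GRCh38.p14, as examples that hold the first core. They were chosen for it: STAT2 and RIGI, called in the same list, held neither core, and TAP1 is outside the list. Capitals mark both cores in PARP14 and IFI27 and the first core in GBP1 and TAP1.
GBP1: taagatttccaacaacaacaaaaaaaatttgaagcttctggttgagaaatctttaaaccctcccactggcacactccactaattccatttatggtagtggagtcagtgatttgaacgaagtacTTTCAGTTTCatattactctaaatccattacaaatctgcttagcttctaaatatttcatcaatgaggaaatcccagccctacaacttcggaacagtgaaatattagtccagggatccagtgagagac
PARP14: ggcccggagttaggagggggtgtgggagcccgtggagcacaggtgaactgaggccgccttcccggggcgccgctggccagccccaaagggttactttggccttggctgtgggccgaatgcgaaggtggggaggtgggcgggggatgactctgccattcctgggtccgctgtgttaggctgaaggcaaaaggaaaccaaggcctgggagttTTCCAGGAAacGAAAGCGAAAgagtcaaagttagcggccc
IFI27: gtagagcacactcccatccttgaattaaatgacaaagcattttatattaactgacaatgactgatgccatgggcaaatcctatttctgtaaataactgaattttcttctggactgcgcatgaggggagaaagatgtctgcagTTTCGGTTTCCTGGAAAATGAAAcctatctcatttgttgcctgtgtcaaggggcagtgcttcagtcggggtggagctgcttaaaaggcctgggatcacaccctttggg
TAP1: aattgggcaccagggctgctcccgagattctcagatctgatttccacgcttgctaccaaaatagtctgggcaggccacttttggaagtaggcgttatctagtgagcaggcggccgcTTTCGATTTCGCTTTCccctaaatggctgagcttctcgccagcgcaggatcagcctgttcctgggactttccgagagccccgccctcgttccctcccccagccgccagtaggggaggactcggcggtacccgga
The starts are those of RefSeq, which for GBP1, IFI27 and TAP1 lie inside the GENCODE spans of the genes. In GBP1 the match lies 127 to 118 bases before the start. In PARP14 the first core lies 29 to 20 bases and the second 40 to 32 bases before it. IFI27 holds 2 matches of the first core with the second core between and over them, from 108 to 86 bases before the start, and TAP1 holds 2 overlapping matches from 134 to 119 bases before it. Whether these sequences were bound in either line was not tested.

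Outside the interferon list, the 12 largest higher responses by the same rule included ADM, INHBE, CEMIP2, FILIP1L, MYH15 and FOS. ADM, adrenomedullin, a vasodilating peptide (chr11:10305073-10307397), was at 7.75, 8.52 and 8.55 CPM in A2780 controls and 10.5, 7.87 and 9.19 CPM in treated libraries, overlapping groups. It rose from 1.39, 1.3 and 1.72 to 4.78, 6.94 and 5.51 CPM in A2780cis, and the interaction was 1.79 ± 0.26 (SE, adjusted p = 0.000352). INHBE, the beta E chain of activin, fell from 17.7, 20.3 and 23.4 to 11.8, 13.5 and 10.2 CPM in A2780 and rose from 3.05, 3.51 and 3.84 to 5.02, 4.96 and 4.95 CPM in A2780cis, with an interaction of 1.31 ± 0.21 (SE, adjusted p = 0.000714). CEMIP2, a hyaluronidase of the cell surface, had a mean of 151 ± 10.4 CPM (SD, n = 3) in A2780 controls and 102 ± 6.07 CPM in treated ones, against 1.19 ± 0.242 and 2.25 ± 0.638 CPM in A2780cis. Its interaction was 1.45 ± 0.26 (SE, adjusted p = 0.00183).

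FILIP1L, a filamin-interacting protein, fell in A2780 from 79.9, 76 and 73.8 to 36.7, 38.5 and 41.2 CPM and was at 1.2, 1.2 and 0.9 CPM without and 1.91, 2.04 and 1.41 CPM with treatment in A2780cis, with an interaction of 1.65 ± 0.26 (SE, adjusted p = 0.000698). MYH15, a myosin heavy chain, had the largest interaction among the higher responses kept in every fit and named by the rule, 2.04 ± 0.38 (SE, adjusted p = 0.00257), from A2780cis levels of 0.37, 0.301 and 0.409 CPM in controls and 2.31, 1.9 and 1.65 CPM in treated libraries. YPEL4 had an interaction of 1.66 ± 0.33 (SE, adjusted p = 0.00393), and its exons overlap those of CLP1 on the other strand. PURPL, a lncRNA induced by p53, was at 46.6, 34.1 and 43.5 CPM and 41.8, 48.4 and 56.4 CPM in A2780. It rose from 10.5, 8.93 and 11 to 35, 36.4 and 29.5 CPM in A2780cis, with an interaction of 1.48 ± 0.23 (SE, adjusted p = 0.000698). The 12 largest also held RBM33-DT, a divergent lncRNA at 1.16 ± 0.25 (SE, adjusted p = 0.00701), and ENSG00000278050, a short RNA inside the lncRNA NEAT1 on the same strand at 1.26 ± 0.28 (SE, adjusted p = 0.00991), whose reads cannot be told apart from those of NEAT1.

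The levels of these genes differed between the lines before treatment. In the untreated libraries of 6 h the mean of A2780cis was below that of A2780 for all 12 of the largest higher responses by the same rule, and by 4-fold or more for 9 of them. The rule asks for a mean log2 CPM of at least 2 over both lines. GBP1, CEMIP2, FILIP1L, MYH15, ADM, YPEL4 and BTN3A3 reached it only through their A2780 levels, so that these counts are largely set by the rule. Since the controls of 6 h are also part of the interaction, the untreated libraries of 12 h, which are not, were also used. There, 122 of the 140 genes with a higher response were lower in A2780cis than in A2780, 42 of them (30%) by 4-fold or more, against 7.15% of all genes tested. Of the 482 with a lower response, 385 were higher in A2780cis, 60 of them (12.4%) by 4-fold or more, against 3.52%. The median log2 ratio of A2780cis to A2780 controls was -0.89 for the first group, 0.55 for the second and -0.01 over all genes, with 0.1 CPM added to each mean. Of the interferon-response genes, 19 of 38 were lower by 4-fold or more in the A2780cis controls of 12 h. JAK1, the kinase of interferon receptors, chosen after its values were seen, was at 14.9, 13.6 and 15.6 CPM in A2780 and 496, 566 and 445 CPM in A2780cis controls of 6 h. It fell in A2780cis to 354, 311 and 313 CPM, with an interaction of -0.92 ± 0.15 (SE, adjusted p = 0.000714), and its exons overlap those of RAVER2 on the other strand.

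Immediate early genes split. Of 44 tested, 2 had a higher and 3 a lower response (11.4% called, against 3.07% of all genes), with a median interaction of -0.08. In A2780 23 rose and in A2780cis 28, against 16% and 14.4% of all genes. After the GC correction 5 were higher and 3 lower, with a median of 0.05. FOS, a subunit of the AP-1 factor (chr14:75278826-75282230), rose from 2.3, 1.7 and 2.82 to 8.96, 8.33 and 8.3 CPM in A2780. From a similar control level in A2780cis, 1.29, 2.01 and 2.21 CPM, it rose to 14.8, 17.3 and 18.7 CPM, above every treated A2780 library, and the interaction was 1.30 ± 0.26 (SE, adjusted p = 0.00455). IER2 rose from 25.3, 34.5 and 33.1 to 42, 41.6 and 36.3 CPM in A2780 and from 17, 18.1 and 17.3 to 39.1, 42.6 and 48.2 CPM in A2780cis, with an interaction of 0.94 ± 0.19 (SE, adjusted p = 0.00486). IER5, its relative, differed in the other direction with an interaction of -0.78 ± 0.14 (SE, adjusted p = 0.00185), as did RHOB, a GTPase induced by DNA damage, at -0.83 ± 0.18 (SE, adjusted p = 0.00701), and ZFP36L1, a factor that destabilises AU-rich transcripts, at -0.69 ± 0.15 (SE, adjusted p = 0.00856).

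Of 26 NF-kappa-B factors and targets, 4 had a lower and 1 a higher response (19.2% called, against 2.38% and 0.692% of all genes in these directions), with a median of -0.22. In A2780 13 rose and in A2780cis 7, where 16% and 14.4% of all genes did. Without A2780cis control replicate 2 the calls were 3, all lower. TNFAIP8, an apoptosis regulator induced by TNF, rose from 2.8, 2.93 and 2.55 to 5.29, 4.81 and 6.52 CPM in A2780. It stood at 3.88, 5.42 and 4.5 CPM without and 3.83, 3.94 and 4.05 CPM with treatment in A2780cis, with an interaction of -1.23 ± 0.23 (SE, adjusted p = 0.00283). CD83, a surface protein of activated immune cells, had an interaction of -1.31 ± 0.25 (SE, adjusted p = 0.00295), TNFAIP2 one of -1.61 ± 0.37 (SE, adjusted p = 0.0133) and NFKB1, which encodes the p105 and p50 subunits, one of -0.54 ± 0.12 (SE, adjusted p = 0.0133). NFKBIZ, a nuclear inhibitor protein of NF-kappa-B, rose in both lines and more in A2780cis, at 0.74 ± 0.17 (SE, adjusted p = 0.0155). For NFKBIA, CHUK, IKBKB and IKBKG, the inhibitor and its kinase subunits, the interaction was -0.37, 0.15, -0.08 and 0.34, with adjusted p-values from 0.164 to 0.875. TNF had at most 1 count in any library of 6 h.

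Single members differed in other stress and growth lists. SLC7A5, a transporter of large amino acids and a target of ATF4, was at 166, 246 and 253 CPM in A2780 controls and 254, 218 and 176 CPM after treatment. It fell from 120.4, 124 and 103 to 44, 46.6 and 55.5 CPM in A2780cis, with an interaction of -1.21 ± 0.25 (SE, adjusted p = 0.00592). Of 53 heat shock and chaperone genes (7.55% called, against 3.07% of all genes), DNAJB4 had a higher response, 0.89 ± 0.20 (SE, adjusted p = 0.0098), and DNAJB5, BAG1 and HSF2 a lower one, with -1.04 ± 0.20 (SE, adjusted p = 0.00314) for DNAJB5. INSIG2, which retains the sterol sensor in the endoplasmic reticulum, fell in A2780 and rose in A2780cis, with an interaction of 1.12 ± 0.21 (SE, adjusted p = 0.00238). HEY1, a repressor downstream of Notch, had an interaction of -1.01 ± 0.20 (SE, adjusted p = 0.00397), and BCL2, the inhibitor of apoptosis, one of -0.95 ± 0.23 (SE, adjusted p = 0.0175) that was kept in 8 of the 12 fits that left out a library. Of 94 ribosome biogenesis genes, RRP7A, RRP1 and RRP1B had a lower response, between -0.70 and -0.60, a share of 3.19% against 3.07% of all genes called in either direction. They kept their call in 10, 9 and 6 of the 12 fits that left out a library, and the list had 0 calls without A2780 control replicate 1 or A2780 treated replicate 1 and 1 without A2780cis treated replicate 1. Of 18 transporters of platinum and drugs (5.56% called), SLC47A1, an exporter of organic cations, had a lower response, -0.52 ± 0.14 (SE, adjusted p = 0.0324), kept in 3 of those fits.

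Mitotic genes fell in both lines. Of 52 tested, 47 fell in A2780 and 48 in A2780cis at 6 h, against 13.4% and 16.3% of all genes, with a median log2 FC of -0.85 and -0.84. The interaction at 6 h passed the threshold for 2 (3.85%, against 3.07% of all genes), 1 higher and 1 lower. At 12 h 43 of the 52 were called lower, against 14% of all genes, and 0 higher. At 6 h the DESeq2 Wald test called 3, and after the GC correction 5 were higher and 2 lower. KIF20A, a kinesin of cytokinesis, fell from 86.2, 82.5 and 84.2 to 30.6, 32.3 and 34.6 CPM in A2780 and from 133, 133 and 137 to 82.9, 76.7 and 71.8 CPM in A2780cis, with an interaction of 0.57 ± 0.11 (SE, adjusted p = 0.00397), and GTSE1, a regulator of p53 in G2, had one of -0.55 ± 0.15 (SE, adjusted p = 0.0487), kept in 4 of the 12 fits that left out a library. In several large lists edgeR's quasi-likelihood test called 0 members. For the 79 cytosolic ribosomal protein genes and the 13 genes of the mitochondrial genome, the number with an unadjusted p-value under 0.05 was also 0, as was the count by DESeq2. The ribosomal protein genes had a median interaction of 0.11, against -0.034 over all genes. The value was positive for 71 of 79, where 10945 of all 20240 genes had a negative one. However, 56 of 79 were negative without A2780 control replicate 2 and 52 without A2780cis control replicate 2. At 12 h 60 of them were called higher, against 9.7% of all genes, as were 47 of the 76 oxidative phosphorylation genes and 9 of the 13 mitochondrial ones. For the 118 spliceosome and hnRNP genes, 17 had an unadjusted p-value under 0.05 at 6 h, against 3229 of all 20240 genes. DESeq2 called 4 of the 118, against 5.39% of the genes it tested. The number with an unadjusted p-value under 0.05 was 3 for the 76 oxidative phosphorylation genes, 5 for the 38 NRF2 and glutathione genes and 9 for the 44 epithelial-mesenchymal genes. DESeq2 called 0, 1 and 1 of them.

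**Figure D4:**
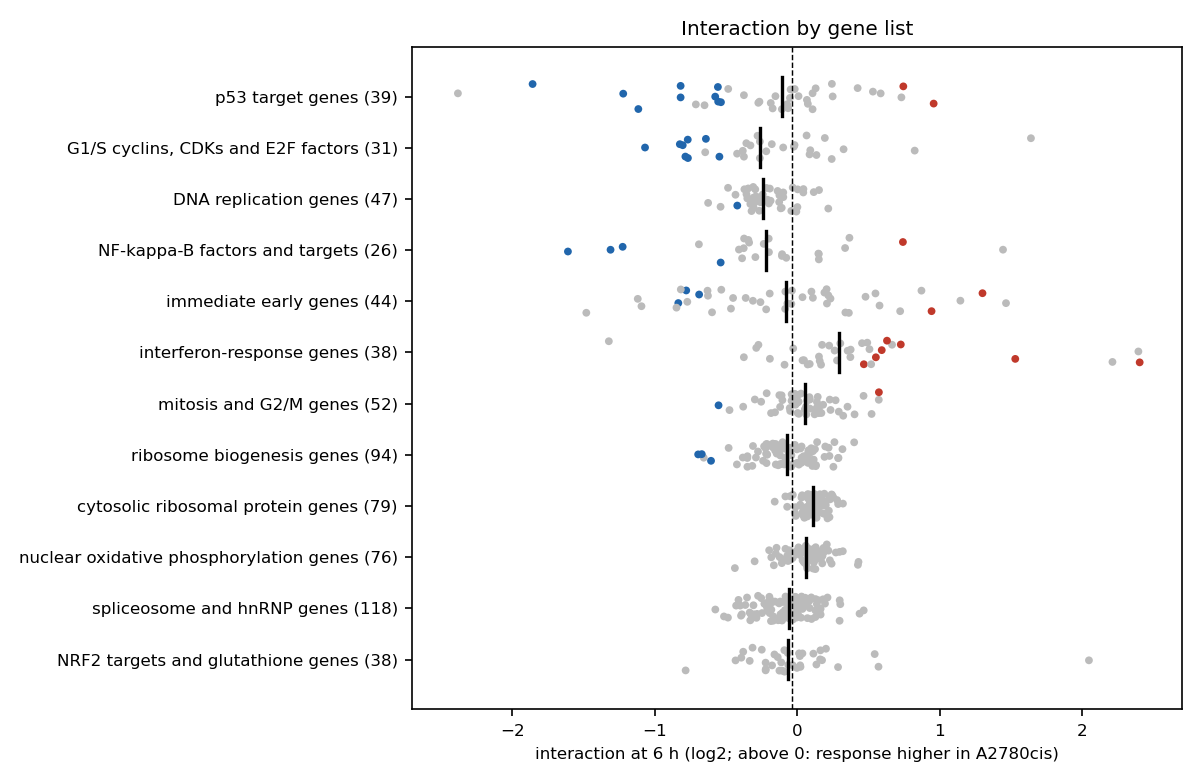
Interaction at 6 h on the log2 scale for each tested member of 12 gene lists (number tested in brackets), with called members in blue (lower response in A2780cis) or red (higher) and others in grey, a black bar at the median of the list and a dashed line at the median of all genes, -0.034; 3 members lie outside the axis. Calls among p53 targets and G1/S genes lie mostly below 0 and those of the interferon list above it, while ribosomal protein genes are packed closely around their median of 0.11.

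Among non-coding genes, 66 of the 622 were lncRNAs, 37 of them among the 140 higher and 29 among the 482 lower responses. The fit without lncRNA and rRNA genes tested 16769 genes, against 20240 with them, so that the 66 are not read as an excess. ENSG00000278996 (chr21:8197620-8227646), a lncRNA gene whose span contains the 45S ribosomal RNA unit RNA45SN2 of RefSeq, rose from 11.1, 9.56 and 13.6 to 20, 17.9 and 16.4 CPM in A2780. It fell from 7.3, 5.01 and 5.48 to 2.87, 2.77 and 2.64 CPM in A2780cis, with an interaction of -1.77 ± 0.21 (SE, adjusted p = 1.58e-05). ENSG00000280441, a lncRNA gene that spans 2 further 45S units and with which it could share reads, had an interaction of -1.73 ± 0.20 (SE, adjusted p = 1.58e-05). ENSG00000280800, ENSG00000280614, ENSG00000281383 and ENSG00000281181, short genes that lie inside 18S ribosomal RNA genes or a copy of one, were called with a higher response. Reads that matched several positions were counted in fractions and the 4 genes had nearly the same interaction, so that they are given as 1 measurement. ENSG00000280800 was at 51.4, 49 and 69 CPM in A2780cis controls and at 1479, 4134 and 93.2 CPM in the treated libraries, where replicate 3 lay near the controls, and the call of each of the 4 was lost without A2780cis treated replicate 2.

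SNHG7, a host gene of small nucleolar RNAs, was the 1 member called of 24 in its list (4.17%, against 3.07% of all genes). It fell in both lines, from 38.3, 39.5 and 47.5 to 25.2, 23.9 and 18.1 CPM in A2780 and from 65.8, 58.1 and 70.8 to 14.7, 19.1 and 19.6 CPM in A2780cis. Its interaction was -0.96 ± 0.22 (SE, adjusted p = 0.0129), and it overlaps DIPK1B on the other strand. Of 108 genes looked up, 27 share exon sequence with a tested gene of the other strand and 6 with one of the same strand, and their values are uncertain to that extent. Among those with a call and a partner of similar or higher level are TP53INP1 with NDUFAF6, CCNE2 with INTS8, KIF20A with BRD8 and CDC23, PARP9 with DTX3L, UCK1 with POMT1 and FAM53B with a gene of its own strand, while FAS overlaps ACTA2, TAP1 PSMB8-AS1, ABHD15 TP53I13 and CCND1 LTO1.

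Most of the differences were also present at 12 h, in libraries that the contrast at 6 h did not use. The spread of each gene came from 1 fit over all 24 libraries, so that calls at the 2 times share it. Of the 482 genes with a lower response at 6 h, 470 had a negative interaction at 12 h, against 53% of all genes. Of the 482, 377 (78.2%) were called lower, against 14% of all genes, and 0 were called higher. Of the 140 with a higher response, 126 had a positive interaction at 12 h, against 47% of all genes. Of the 140, 86 (61.4%) were called higher, against 9.7%, while KIF20A was the 1 called in the opposite direction. Without A2780 control replicate 1, A2780cis control replicate 2 or A2780cis treated replicate 2, the genes called lower at both times numbered 225, 235 and 233 and those called higher 55, 57 and 49. Without A2780 treated replicate 2, 248 were lower at both times, and without A2780 treated replicate 1, 56 were higher. The median interaction went from -0.84 to -0.81 in the first group and from 1.03 to 0.81 in the second. The difference widened for TP53INP1, from -1.86 to -3.72, and CEMIP2, from 1.45 to 3.69. It narrowed for SLC7A5, from -1.21 to -0.07, and for CCNE1, from -0.77 to -0.21 (adjusted p = 0.198 at 12 h). The change from 6 h to 12 h itself was not tested. CDKN1A, which showed no difference past the threshold at 6 h, had an interaction of 1.24 at 12 h (adjusted p = 1.83e-06).

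**Figure D5:**
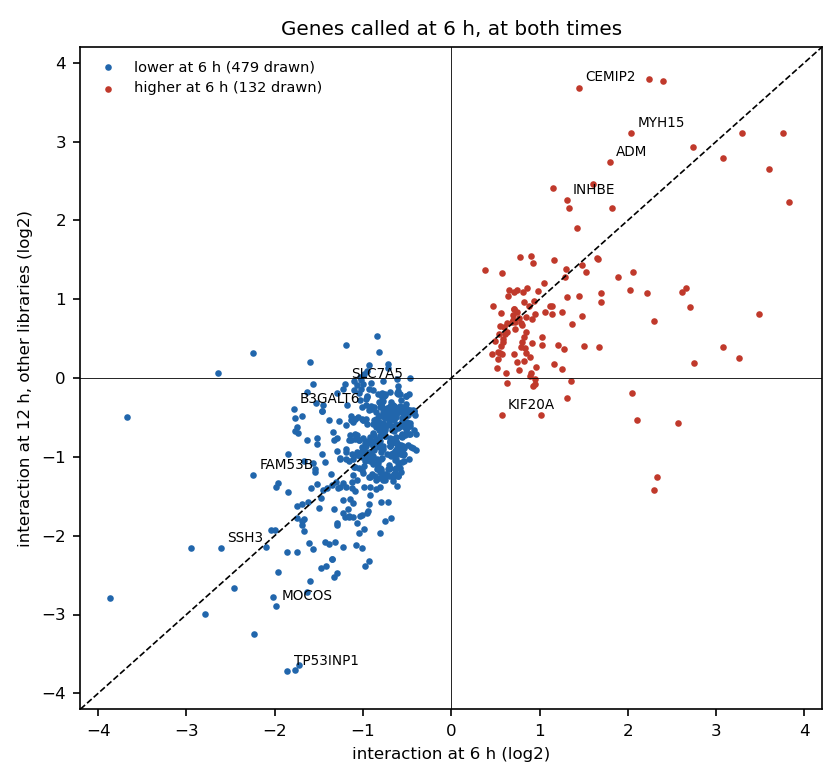
Interaction of line and treatment at 6 h (horizontal axis) and at 12 h in other libraries (vertical axis), both on the log2 scale, for 611 of the 622 genes called at 6 h; 11 lie outside the axes, and the dashed line marks equal values. Most genes lie at lower left and upper right, with KIF20A below 0 at 12 h.

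Libraries differed in how their counts followed the GC content of genes, within groups as well. The correlation of a library's deviation from its group mean with GC content, across 9669 genes, which are not independent replicates, was -0.767 for A2780 control replicate 1 and 0.724 for replicate 3, 0.786 and -0.78 for A2780 treated replicates 1 and 3, and -0.706 and 0.763 for A2780cis treated replicates 1 and 3. The median GC content was 51.7% for the 440 protein-coding genes with a lower response, 44.7% for the 84 with a higher one and 48.2% for those not called. After the correction for GC content, chosen after the data were seen, 602 of the 622 genes were called in the same direction, 465 lower and 137 higher. The part of GC content in the remaining calls was not tested.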

How the data were processed

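RNA of A2780 and A2780cis cells, with and without 5-FdU-ECyd, was sequenced in 8 groups of 3 libraries. Per the labels, a stranded total RNA kit and single reads were used, whereas the study's methods describe paired reads. Per the submitters' processing notes, reads were trimmed with Trimmomatic, aligned with STAR 2.5.2b to GRCh38.p7 and counted with featureCounts. The strand setting of the counting is not given in the sources used here. The authors deposited 1 table of unnormalised estimated counts per gene, with fractions because reads of several positions were shared out, for 63299 genes. The methods describe a removal of lincRNA genes, rRNA genes and genes without a count. The table holds 46 rRNA genes, 20262 genes without a count and, by GENCODE 44 biotype, 14157 lncRNA genes, a wider class than lincRNA.

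Counts were rounded to whole numbers and tested with edgeR 4.0.16 (R 4.3.3): TMM normalisation, filterByExpr with a minimum count of 10 and a total of 15, 1 coefficient per group over all 24 libraries (16 residual degrees of freedom) and the two-sided quasi-likelihood F test. P-values were adjusted with Benjamini-Hochberg over 20240 genes, with a threshold of 0.05. SEs were derived from the F statistic and the fold change. A set was simulated for the interaction at 6 h. Of its genes changed by 1 on the log2 scale, 79 of 100 were recovered, and of those changed by 2, 100 of 100. Of 185 calls, 6 were false. These rates describe the simulated counts and were not split by expression level. Whether they hold for the real libraries, which differed in how their counts followed GC content, was not tested.

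The members and lists were chosen with earlier results of these data known. Named genes were the 12 largest interactions in each direction among genes called in the fit and in all 12 fits without 1 library, at 2 or more log2 CPM on average and without rRNA, snRNA, snoRNA, pseudogenes and mitochondrial genes, then up to 3 called members per list with the smallest p-value, and the genes the study names. Other called members of lists, and genes named as chosen after their values were seen, were added. Alternatives were other normalisations, filters, fits and blocks, DESeq2 1.42.0, limma 3.58.1 (voom) and a loess correction for GC content (span 0.5) chosen after the data were seen. Same-numbered control and treated libraries did not deviate together (correlations from -0.655 to 0.173), so that replicate numbers were not taken to pair them. Promoter sequences and motif searches used the RefSeq table of GRCh38.p14, which held a window for 12062 of the tested genes. Intervals cover counting error only. Libraries of 6 h held 11077368 to 21901406 counts.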

Additional observations from a re-analysis of the deposited data

Results flagged for a closer look

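The test of the difference between the lines at 6 h itself marked 622 genes, and the named ones among them are given with their interaction on the log2 scale. The test for a sample far from the others of its group was not applied to groups of 3, and libraries that changed a call are named in the report.

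For genes with a lower response in A2780cis, the interaction was -2.61 for SSH3, -2.24 for FAM53B, -1.99 for MOCOS, -1.98 for SLC12A7, -1.86 for PDGFA, -1.86 for TP53INP1, -1.85 for BAIAP2 and -1.78 for B3GALT6. Next came -1.77 for ENSG00000278996, -1.77 for RXRA, -1.75 for PLCL2, -1.75 for VAV2, -1.73 for ENSG00000280441, -1.70 for ABHD15, -1.61 for TNFAIP2 and -1.48 for EGFR. Then came -1.47 for LPCAT1, -1.31 for CD83, -1.23 for TNFAIP8, -1.22 for FAS, -1.21 for SLC7A5, -1.11 for PPM1D, -1.07 for CCND3 and -1.04 for DNAJB5. These were followed by -1.01 for HEY1, -0.96 for SNHG7, -0.95 for BCL2, -0.92 for JAK1, -0.83 for RHOB, -0.82 for E2F7, -0.82 for DRAM1 and -0.82 for APAF1. Smaller were -0.80 for CCNE2, -0.78 for E2F2, -0.78 for IER5, -0.77 for CCND1, -0.77 for CCNE1, -0.72 for RRM2, -0.70 for RRP7A and -0.69 for ZFP36L1. Closer to 0 were -0.67 for RRP1, -0.64 for CDC25A, -0.64 for BAG1, -0.60 for RRP1B, -0.58 for AEN, -0.56 for TP53I3, -0.56 for UCK1 and -0.55 for FBXW7. After them came -0.55 for GTSE1, -0.55 for TFDP1, -0.54 for NFKB1, -0.54 for PLK2, -0.52 for SLC47A1 and -0.42 for GINS4.

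For genes with a higher response in A2780cis, the interaction was 2.40 for IFI27, 2.30 for CD274, 2.04 for MYH15 and 1.79 for ADM. Below these were 1.66 for YPEL4, 1.65 for FILIP1L, 1.53 for GBP1, 1.48 for PURPL, 1.45 for CEMIP2, 1.31 for INHBE, 1.30 for FOS and 1.29 for BTN3A3. Smaller values were 1.26 for ENSG00000278050, 1.16 for RBM33-DT, 1.16 for TAP1, 1.12 for INSIG2, 0.96 for GADD45A, 0.94 for IER2, 0.89 for DNAJB4 and 0.86 for APOL6. Further down came 0.74 for NFKBIZ, 0.74 for SESN2, 0.73 for RIGI, 0.63 for STAT2, 0.59 for PARP14, 0.57 for KIF20A, 0.55 for IRF1 and 0.47 for PARP9. The 4 short genes inside 18S ribosomal RNA sequence, given as 1 measurement, had 5.03 for ENSG00000281181, 5.03 for ENSG00000280800, 5.02 for ENSG00000281383 and 5.02 for ENSG00000280614, and each lost its call without A2780cis treated replicate 2.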

How the results depend on the processing

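With no filter on low counts, 260 genes had a higher response (140 in the report), 156 of them also at 12 h, and 211 did with the DESeq2 Wald test. The share of lower responses (77.5% in the report) was 65.4% with no filter, 66.6% with the 12 libraries of one time fitted alone, which left 285 genes lower (482 in the report) and 208 lower at both times, 66% without lncRNA and rRNA genes, with 314 lower, and 60.9% with the GC correction. With the GC correction, 1239 genes were called, 484 of them higher, with 312 higher and 579 lower also at 12 h, and 11 interferon-response genes. With the replicate block 164 genes were higher and 584 lower, and with a block within line and time 433 were called, while same-numbered libraries did not deviate together. Without 1 library, the total lay between 357 and 642, the higher responses between 75 and 152, the lower ones between 280 and 521, the share of lower ones between 74.1% and 81.4%, p53 targets with a lower response between 7 and 9, G1/S genes between 7 and 9, interferon-response genes between 3 and 6, and genes also called at 12 h between 49 and 84 (higher) and between 225 and 411 (lower). The cause of these shifts was not tested. Over 103 named genes, 2170 comparisons with an alternative kept direction and side of the threshold, 165 lost the call, in 24 genes, 4 gained one, and 16 changed sign, all of these in genes near 0 that passed the threshold under 0 of the alternatives. IKBKB went to 0.001406 without lncRNA and rRNA genes and 0.03144 with the GC correction. RRM2B went to -0.02273 with the GC correction and ranged from -0.01232 to 0.1521 without 1 library. DDB2 went to 0.01161 without lncRNA and rRNA genes and 0.03842 with the GC correction, and ranged from -0.2064 to 0.06841. BBC3 went to -0.004541 with limma-voom and ranged from -0.2607 to 0.3993. BAX ranged from -0.02488 to 0.2898. With 3 libraries per group genes of few counts, such as SFN and TNF, could not be resolved.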
